A study of Homo sapiens with 6 samples.

Results

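RNA-seq values of 9 genes of the NRF2 antioxidant pathway were examined in TFK1 cells with and without STUB1 overexpression. The genes were NFE2L2, KEAP1, NQO1, HMOX1, GCLC, GCLM, SLC7A11, TXNRD1 and SRXN1, chosen by symbol as the transcription factor, its inhibitor and 7 of its best known targets, and all 9 were present among the 23569 genes listed. TFK1 is a cholangiocarcinoma (CCA) line derived from a tumor of the extrahepatic bile duct. The study compared a negative control, oeNC (n = 3 libraries), with cells made to overexpress STUB1, a ubiquitin ligase and chaperone partner, named oeSTUB1 (n = 3), in order to find genes controlled downstream of STUB1, UHRF1 and DNMT1. According to the study's methods, both kinds of cells were made by lentiviral transduction of TFK1 and then selected with puromycin. The labels name no further treatment, and no clone is mentioned. Each group is 1 transduced population as far as the sources tell, so that effects of STUB1 and of the population as such cannot be told apart. The study's methods speak in general of independent repeats of its experiments, but do not say whether the 3 libraries of a group came from separate cultures, and if they did not, the p-values measure the spread between these libraries, which may be technical.

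NRF2, the protein of NFE2L2, is held at low levels by KEAP1, which presents it to a CUL3 ubiquitin ligase. Oxidants and electrophiles modify cysteines of KEAP1, NRF2 then accumulates, pairs with small MAF proteins and binds antioxidant response elements near its target genes. The targets rebuild glutathione and thioredoxin, reduce quinones, degrade heme and supply NADPH. BACH1 competes for the same elements as a repressor, with HMOX1 among its best known targets. The pathway is often active in tumors, and it is controlled mainly at the level of the NRF2 protein, which RNA-seq does not measure.

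NFE2L2, GCLC and SRXN1 fell in oeSTUB1 cells by 28.8%, 25.1% and 25.7% of their mean level. SLC7A11 and TXNRD1 had lower values in every oeSTUB1 library without passing the test, HMOX1 and GCLM had higher values in every oeSTUB1 library without passing it, and NQO1 and KEAP1 overlapped between the groups. Only lower values passed the test, and whether the 9 genes as a set changed unequally was not tested. Lower values of a transcript in bulk RNA can come from fewer cells that express it or from less RNA per cell, which cannot be told apart here. The values are FPKM, fragments per unit of gene length and of library total, so levels of different genes are given per length. Groups were compared with limma on log2(FPKM + 0.1) over the 15353 genes whose FPKM averaged 0.1 or more, and a gene was called at a Benjamini-Hochberg adjusted p under 0.05. All 9 genes passed that filter, 3 were called lower and 0 higher, where 6.59% of all tested genes were called lower and 7.01% higher. The 9 genes were chosen with earlier results of these data known, so their counts are no independent support. The number called lower was 0 without oeNC replicate 1 or without oeNC replicate 3, and 5 without oeSTUB1 replicate 2. The groups did not overlap for 7 of the 9 genes, 5 with lower and 2 with higher oeSTUB1 values, against a background of 38.8% of all tested genes (17.3% lower and 21.5% higher). The 2 of 9 with higher values were near the background share of higher genes. The median log2 fold change was -0.20 over the 9 genes and 0.02 over all genes tested. None of the 9 passed an absolute log2 fold change of 1 as well, which 5.20% of all tested genes did. In an exact permutation test of 3 libraries against 3, the smallest two-sided p is 0.1, and the 7 genes without overlap had that value, with 0.3 for KEAP1 and 1 for NQO1.

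**Figure D1:**
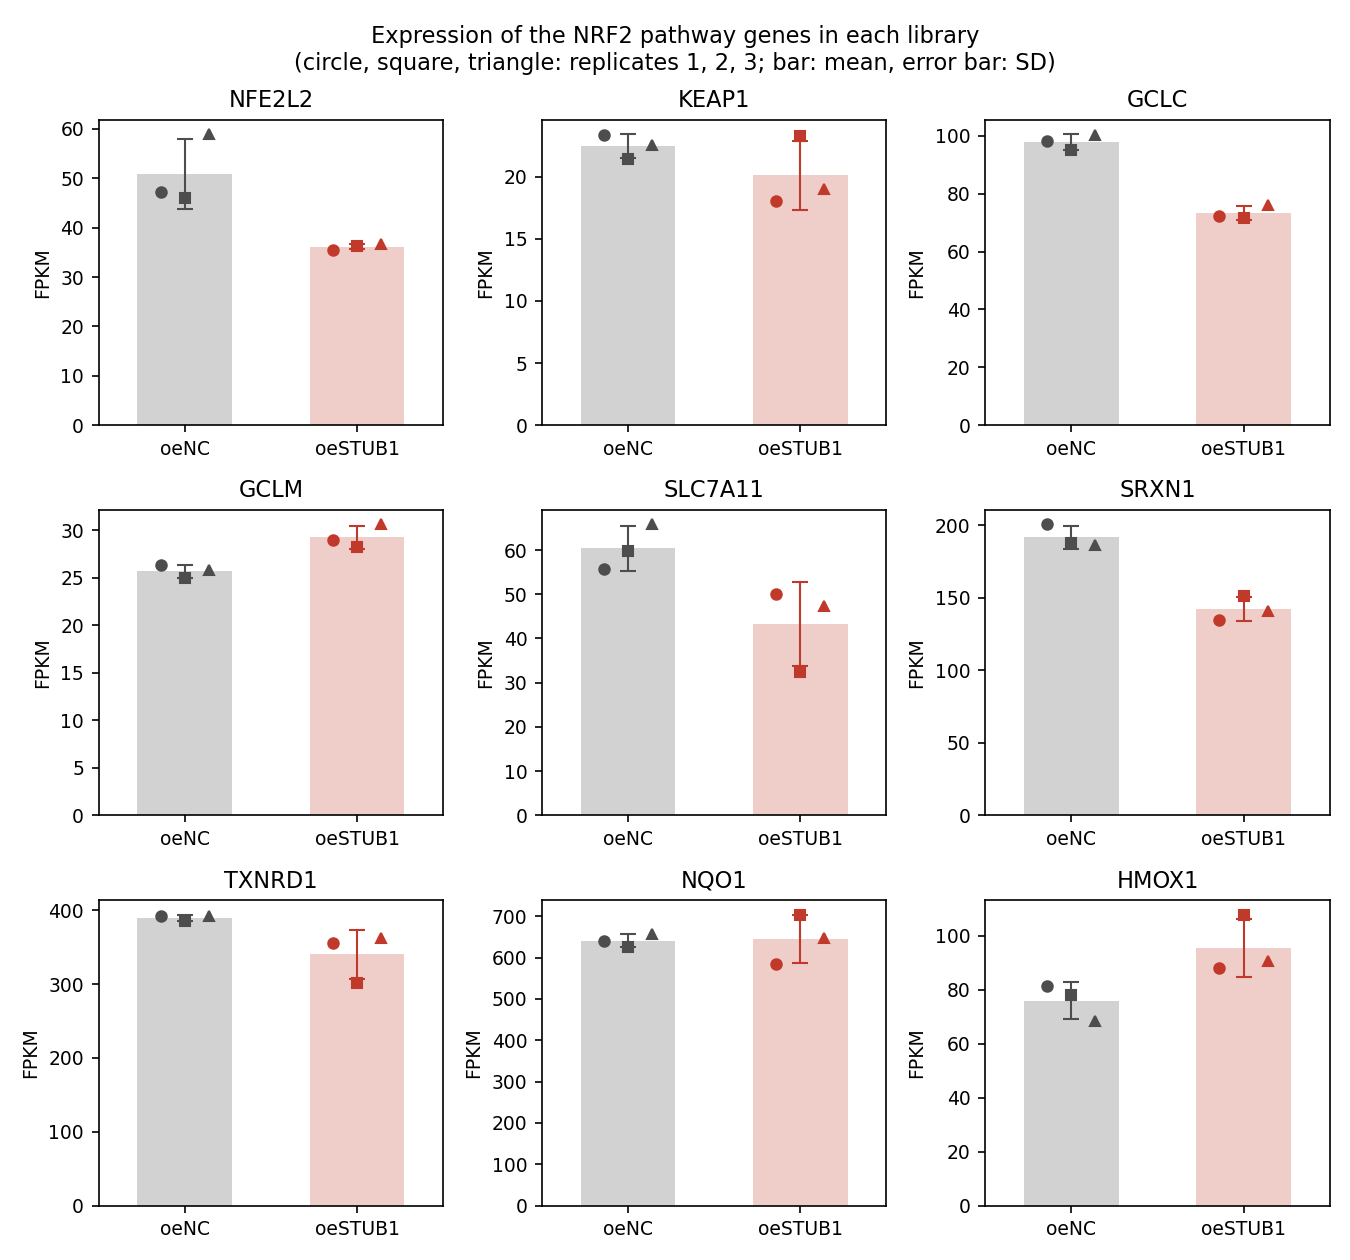
FPKM of each of the 9 pathway genes in the 3 oeNC (grey) and 3 oeSTUB1 (red) libraries, with a linear axis from 0 for each gene, bars at the group mean and error bars of 1 SD. The points of NFE2L2, GCLC, SRXN1, SLC7A11 and TXNRD1 lie lower in every oeSTUB1 library, those of HMOX1 and GCLM lie higher, and those of KEAP1 and NQO1 overlap.

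Library totals, recovered from the steps of the FPKM values, lay between 33106564 and 36744521 fragments, and the 9 genes held from 1883 to 61452 fragments per library. STUB1 averaged 32.3 ± 1.23 in oeNC against 66.1 ± 7.70 FPKM in oeSTUB1 libraries (SD, n = 3 each; log2 fold change 1.03, limma adjusted p = 0.00064), and its groups did not overlap. Of 10 biliary epithelial markers, KRT7, KRT8 and KRT18 were abundant in every library, but KRT19 was at or below 0.529 FPKM in oeNC and 3.41 FPKM in oeSTUB1, and 5 markers were called lower and 2 higher. Summed markers of endothelial cells stayed at or below 0.231 FPKM and those of fibroblasts at or below 3.92 FPKM. The 7 leukocyte markers summed to between 32.4 and 34.7 FPKM in oeNC and between 25.8 and 26.6 FPKM in oeSTUB1, most of it CD68, a lysosomal membrane protein that fell by 0.50 on the log2 scale (limma adjusted p = 0.0030), and CD14, a monocyte marker, was at 4.33 to 6.09 FPKM. CD3E, MS4A1 and CD163 were at or below 0.108 FPKM. One library stood apart, oeSTUB1 replicate 2, whose values deviated from the other oeSTUB1 libraries with gene length. Its median log2 deviation from the mean of the other oeSTUB1 libraries was 0.33 among the shortest genes, those of up to 2102 bases. Among the longest genes, those from 6124 bases, it was -0.34. Results are therefore also given without this library and after a correction of each library for gene length. The correction was added after the data were seen.

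Promoter sequences are shown because NRF2 binds antioxidant response elements near its target genes. GCLC and GCLM are printed as the subunits of a single enzyme, and a link of such elements to the expression values was not tested. The windows are those of RefSeq on GRCh38.p14, 250 bases before to 50 after each start, and 7 of the 9 genes had an entry, with 10 windows. The motif searched was TGACNNNGC, the core of the antioxidant response element, on both strands, and 13.3% of all 35116 windows hold it. It was found in 4 of the 10 windows, namely that of GCLM, 1 of KEAP1 and both of TXNRD1. It was not in the windows of NFE2L2, NQO1, GCLC and SRXN1 or in the other window of KEAP1. Capitals mark the motif, which reads on the opposite strand in the GCLM and TXNRD1 sequences and at the second of the matches in KEAP1. The first pair below gives the 250 bases before the start of each glutamate-cysteine ligase gene, GCLM at chr1:93909431-93909680 and GCLC at chr6:53545102-53545351, both on the minus strand. The GCLM motif begins 34 bases before the start.
GCLM: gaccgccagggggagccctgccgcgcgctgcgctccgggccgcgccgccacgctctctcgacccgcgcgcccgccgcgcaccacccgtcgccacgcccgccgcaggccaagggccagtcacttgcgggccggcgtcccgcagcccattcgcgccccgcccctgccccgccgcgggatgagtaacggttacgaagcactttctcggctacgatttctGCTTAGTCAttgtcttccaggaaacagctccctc
GCLC: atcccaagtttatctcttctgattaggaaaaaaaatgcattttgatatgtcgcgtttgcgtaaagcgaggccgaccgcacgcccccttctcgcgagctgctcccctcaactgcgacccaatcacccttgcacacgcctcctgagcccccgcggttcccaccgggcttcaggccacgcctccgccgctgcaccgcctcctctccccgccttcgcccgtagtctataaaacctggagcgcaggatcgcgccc
The second pair gives the surroundings of the motif in KEAP1, which encodes the inhibitor of NRF2 (chr19:10502779-10502840, minus strand), and in the second window of TXNRD1 (chr12:104286915-104286953, plus strand).
KEAP1: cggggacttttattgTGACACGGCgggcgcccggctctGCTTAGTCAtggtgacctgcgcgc
TXNRD1: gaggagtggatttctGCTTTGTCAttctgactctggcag
A match is a description of the letters alone, and elements of NRF2 targets can lie outside these windows.

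NFE2L2, the transcription factor itself, lies on the minus strand of chr2:177227595-177392697 (GENCODE release 29, GRCh38, as for all genes here). Its level was 47.3, 46.1 and 59.0 FPKM in oeNC replicates 1, 2 and 3 and 35.6, 36.2 and 36.7 FPKM in oeSTUB1 replicates 1, 2 and 3. The oeSTUB1 values lay close together and below all oeNC values, of which that of replicate 3 was the highest. The mean fell from 50.8 ± 7.10 to 36.2 ± 0.589 FPKM (SD, n = 3 each), a log2 fold change of -0.48 (SE 0.10, 95% interval -0.72 to -0.24, limma adjusted p = 0.022). With 1 library left out, the log2 fold change stayed between -0.54 and -0.37, while the call was lost without oeNC replicate 1 (limma adjusted p = 0.060), oeNC replicate 3 (0.055), oeSTUB1 replicate 1 (0.065) or oeSTUB1 replicate 3 (0.055). Most genes of chromosome 2 had lower values in oeSTUB1 cells. Its 1030 tested genes had a median of -0.21 on the log2 fold change scale and 77.3% lay below 0, and the 20 tested genes nearest to NFE2L2 had a median of -0.24, 17 of them below 0. NFE2L2 lay 0.27 below the chromosome's median on the log2 scale, and the part of the chromosome in its change was not tested. The gene model overlaps AGPS on the opposite strand, a peroxisomal enzyme of ether lipid synthesis with a log2 fold change of -0.20 (limma adjusted p = 0.24), and a strand setting of the counting is not given in the sources used here.

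KEAP1, the adaptor that targets NRF2 for degradation, lies on the minus strand of chr19:10486120-10503741. Its level was 23.4, 21.5 and 22.6 FPKM in the oeNC and 18.0, 23.3 and 19.0 FPKM in the oeSTUB1 libraries. Replicates 1 and 3 of oeSTUB1 lay below every oeNC value, and replicate 2, the library that stood apart, lay among them. The log2 fold change was -0.17 (SE 0.11, 95% interval -0.42 to 0.08, limma adjusted p = 0.34), and the interval holds no change and values on either side of it. Without oeSTUB1 replicate 2 it was -0.28 and passed the test (limma adjusted p = 0.012), and with the correction for gene length it was -0.21 (limma adjusted p = 0.097).

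The ratio of the factor's transcript to that of its inhibitor, NFE2L2 to KEAP1, was 2.02, 2.15 and 2.61 in oeNC and 1.97, 1.55 and 1.93 in oeSTUB1 libraries. The ranges did not overlap, although the closest values were 2.02 and 1.97. The ratio averaged 2.26 ± 0.311 and 1.82 ± 0.230 (SD, n = 3 each). BACH1, the repressor at antioxidant response elements, stood at 8.94, 9.15 and 10.8 FPKM in oeNC and 5.18, 4.05 and 5.71 FPKM in oeSTUB1 libraries, and it fell by 0.95 on the log2 scale (SE 0.14, limma adjusted p = 0.0047). It was called with every library left out in turn. BACH1 relative to NFE2L2 was 0.190 ± 0.00800 in oeNC and 0.138 ± 0.0228 in oeSTUB1 (SD, n = 3 each), without overlap. In these libraries the transcript of the repressor was thus lower also relative to that of the activator, with the lowest ratio in oeSTUB1 replicate 2. Among 4 such ratios, the exact permutation p was 0.1 and the adjusted p 0.133 for each of the 3 without overlap.

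GCLC, the catalytic subunit of glutamate-cysteine ligase, which makes the first and limiting step of glutathione synthesis, lies on the minus strand of chr6:53497341-53616970. Its level was 98.4, 95.1 and 100.4 FPKM in oeNC and 72.4, 71.5 and 76.2 FPKM in oeSTUB1 libraries. The groups lay far apart relative to their spread, at 98.0 ± 2.68 and 73.4 ± 2.48 FPKM (SD, n = 3 each). GCLC fell by 0.42 on the log2 scale (SE 0.07, 95% interval -0.58 to -0.25, limma adjusted p = 0.0083). The log2 fold change stayed between -0.44 and -0.40 with 1 library left out, and the call was lost without oeNC replicate 1 (limma adjusted p = 0.060) or oeNC replicate 3 (0.052). Its 20 nearest tested genes had a median log2 fold change of -0.04.

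GCLM encodes the modifier subunit of the same ligase, which lowers its need for glutamate and relieves inhibition by glutathione, on the minus strand of chr1:93885205-93909456. Its level was 26.3, 25 and 25.8 FPKM in oeNC and 28.9, 28.2 and 30.6 FPKM in oeSTUB1 libraries. Every oeSTUB1 value lay above every oeNC value, by a small margin. The log2 fold change of 0.19 (SE 0.07, 95% interval 0.02 to 0.35) did not pass the test (limma adjusted p = 0.13). It did so without oeSTUB1 replicate 2 (0.21, limma adjusted p = 0.020) and with the correction for gene length (0.22, limma adjusted p = 0.048), but in no other alternative. With median-ratio scaling it was 0.16 (limma adjusted p = 0.19) and with quantile normalization 0.10 (limma adjusted p = 0.38).

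The ratio of GCLM to GCLC within a library was 0.268, 0.263 and 0.257 in oeNC and 0.400, 0.394 and 0.402 in oeSTUB1 libraries. This was the tightest separation among the 4 ratios examined, and oeSTUB1 replicate 2 did not stand apart in it. The mean ratio was 0.263 ± 0.00542 in oeNC and 0.399 ± 0.00392 in oeSTUB1 (SD, n = 3 each), a difference of 0.60 on the log2 scale with an exact permutation p of 0.1, the smallest possible. A ratio between genes of a library shows unequal change and does not say which transcript changed.

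**Figure D2:**
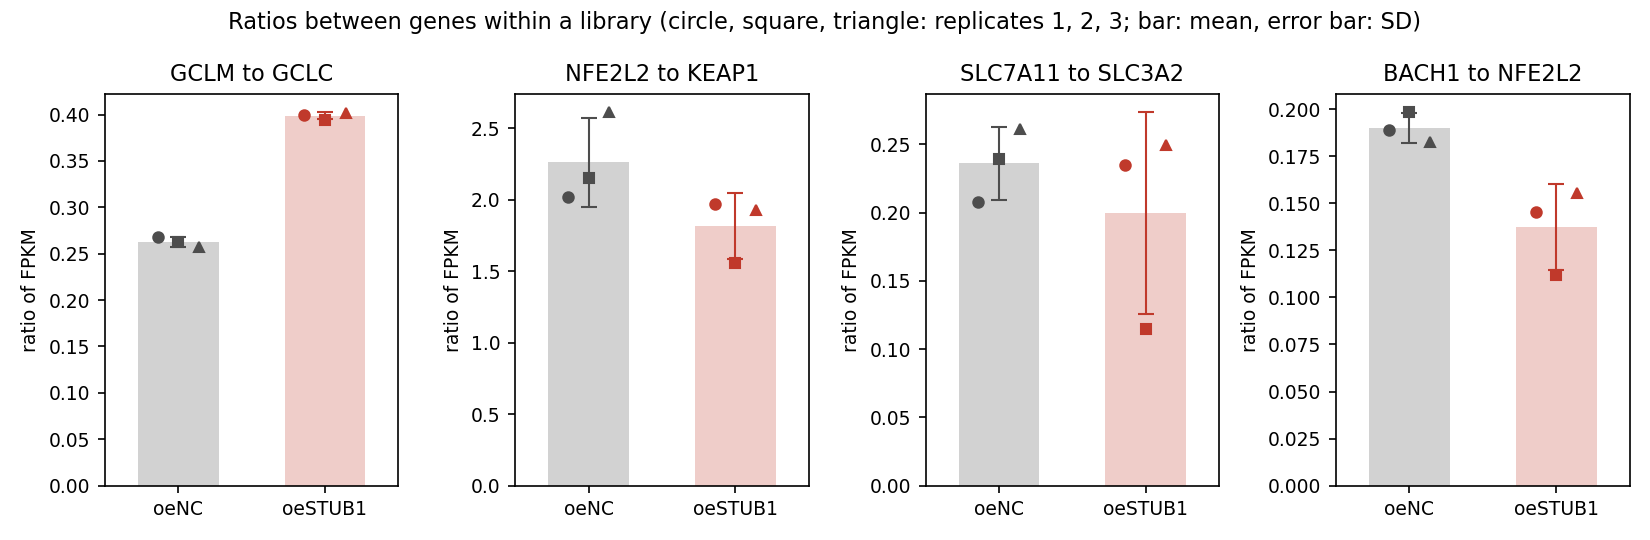
Ratios of FPKM between pairs of genes within each library, with oeNC in grey and oeSTUB1 in red, bars at the mean and error bars of 1 SD, on linear axes from 0. The ratio of GCLM to GCLC lies between 0.257 and 0.268 in oeNC and between 0.394 and 0.402 in oeSTUB1, the ratios of NFE2L2 to KEAP1 and of BACH1 to NFE2L2 are lower in every oeSTUB1 library, and that of SLC7A11 to SLC3A2 overlaps.

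SLC7A11, the cystine carrier that supplies cysteine for glutathione, lies on the minus strand of chr4:138164097-138242349. Its level was 55.8, 59.7 and 65.8 FPKM in oeNC and 50.1, 32.4 and 47.3 FPKM in oeSTUB1 libraries. The groups did not overlap, but oeSTUB1 replicate 2 lay far below the other oeSTUB1 libraries, and the gene's counted length of 9742 bases puts it among those longest genes. Its log2 fold change of -0.50 was the largest of the 9 genes in size and the least precise (SE 0.16, 95% interval -0.88 to -0.13, limma adjusted p = 0.082). Without oeSTUB1 replicate 2 it was -0.31 and passed the test (limma adjusted p = 0.020), and with the correction for gene length it was -0.42 (limma adjusted p = 0.0062). Thus the size of the difference rested in part on that library, and its direction did not. SLC3A2, the heavy chain that pairs with SLC7A11 at the membrane, stood at 257 ± 10.2 FPKM in oeNC and at 228 ± 48.1 FPKM in oeSTUB1 (SD, n = 3 each; log2 fold change -0.19, limma adjusted p = 0.43). The ratio of SLC7A11 to SLC3A2 overlapped between the groups, with an exact permutation p of 0.6. SLC7A11-AS1, on the opposite strand, had at most 1 fragment in a library.

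Over the 6 libraries, the genes with values most like those of SLC7A11 among 11374 genes averaging 1 FPKM or more were FBXL20 (Pearson r = 0.999 on the log2 scale), FBXO11 (0.999) and ITPR1 (0.998). Their log2 fold changes were -0.36, -0.26 and -0.74. The 6 points share 2 groups and the low value of oeSTUB1 replicate 2, so the correlation describes these libraries alone.

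SRXN1, sulfiredoxin, restores peroxiredoxins whose active cysteine has been overoxidized, and lies on the minus strand of chr20:646615-653370. Its level was 200.7, 187.9 and 186.4 FPKM in oeNC and 135.1, 151.2 and 140.7 FPKM in oeSTUB1 libraries. All oeSTUB1 values lay below all oeNC values with a wide gap. The mean fell from 192 ± 7.82 to 142 ± 8.18 FPKM (SD, n = 3 each), a log2 fold change of -0.43 (SE 0.08, 95% interval -0.62 to -0.24, limma adjusted p = 0.013). The log2 fold change stayed between -0.47 and -0.39 with 1 library left out, and the call was lost without oeNC replicate 1 (limma adjusted p = 0.085), 2 (0.070) or 3 (0.055). The annotation also has a protein coding gene model, AL121758.1, on the same strand over SRXN1, so that reads may be shared between them.

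TXNRD1, cytosolic thioredoxin reductase, keeps thioredoxin reduced with electrons from NADPH and lies on the plus strand of chr12:104215779-104350305. Its level was 392.1, 385.6 and 392.6 FPKM in oeNC and 356.0, 302.0 and 362.9 FPKM in oeSTUB1 libraries. The oeNC values were nearly equal and the oeSTUB1 values all lay below them, with replicate 2 the lowest. The mean was 12.8% lower in oeSTUB1, but the log2 fold change of -0.20 did not pass the test (SE 0.10, 95% interval -0.43 to 0.03, limma adjusted p = 0.22). It was -0.12 without oeSTUB1 replicate 2 (limma adjusted p = 0.063) and -0.22 with the correction for gene length (limma adjusted p = 0.057). EID3, a gene on the same strand within the TXNRD1 model, was counted separately at 2.53 ± 0.285 and 4.17 ± 0.620 FPKM (SD, n = 3 each). It was called higher (log2 fold change 0.70, limma adjusted p = 0.016, and up to 0.074 with 1 library left out).

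NQO1, the quinone reductase that serves as the usual readout of NRF2 activity, lies on the minus strand of chr16:69706996-69726951 and ranked 75 of 15353 genes by mean FPKM. Its level was 640.0, 626.5 and 657.7 FPKM in oeNC and 584.9, 702.0 and 648.4 FPKM in oeSTUB1 libraries. The oeSTUB1 values spread on both sides of the oeNC values. The means were 641 ± 15.6 and 645 ± 58.6 FPKM (SD, n = 3 each), and the log2 fold change had a 95% interval of -0.23 to 0.24 (limma adjusted p = 0.98). The sign of this difference turned in several alternatives, so no direction is given. Without oeSTUB1 replicate 2 the log2 fold change was -0.06.

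HMOX1, heme oxygenase 1, opens the heme ring to release iron, carbon monoxide and biliverdin, and lies on the plus strand of chr22:35380361-35394214. Its level was 81.3, 78.3 and 68.5 FPKM in oeNC and 88.0, 107.8 and 90.6 FPKM in oeSTUB1 libraries. The oeSTUB1 values were all above the oeNC values, and that of replicate 2 was the highest. The log2 fold change of 0.33 did not pass the test (SE 0.11, 95% interval 0.08 to 0.58, limma adjusted p = 0.087). With the correction for gene length, which bears on this short transcript of 1554 bases, it was 0.25 and passed (limma adjusted p = 0.039), and without oeSTUB1 replicate 2 it was 0.24 (limma adjusted p = 0.052).

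**Figure D3:**
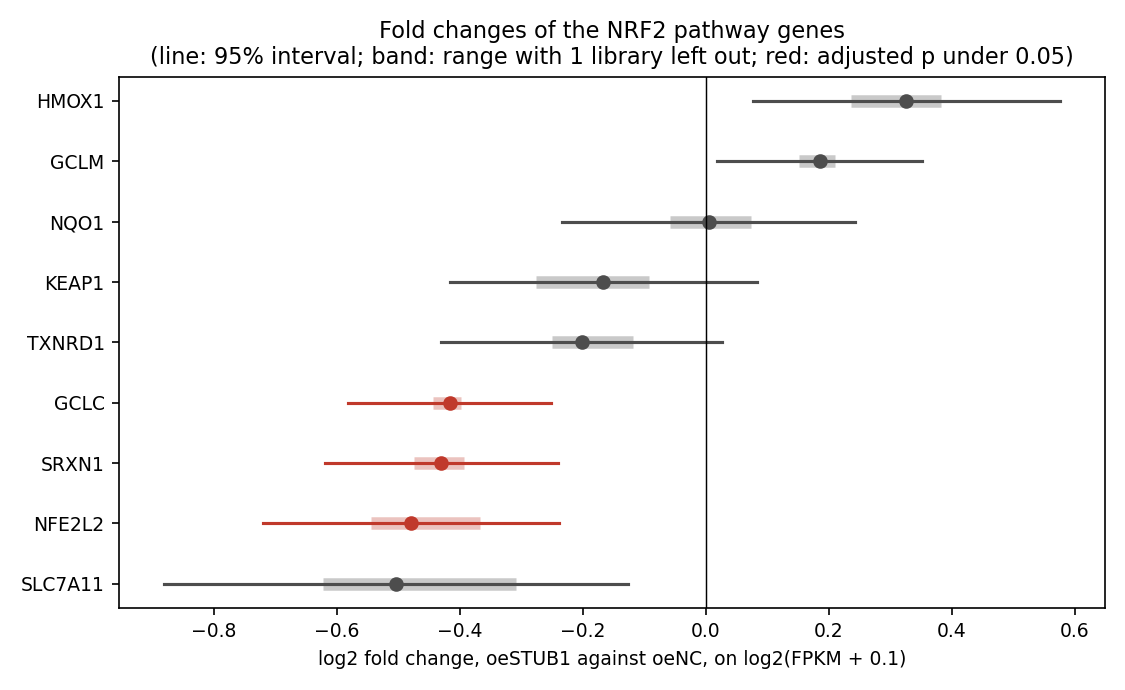
Log2 fold changes of the 9 pathway genes, oeSTUB1 against oeNC, with the 95% interval as a line, the range with 1 library left out as a band, and called genes in red. NFE2L2, SRXN1 and GCLC are called at -0.48, -0.43 and -0.42, SLC7A11 is lowest at -0.50 with the widest interval, and HMOX1 is highest at 0.33.

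Of 20 regulators and partners of NRF2, 19 were tested, 1 was called higher and 1 lower, a share near the 13.6% of all genes called, and their median log2 fold change was -0.02. Called lower was BACH1, described above, and called higher was PGAM5, a mitochondrial phosphatase that can hold KEAP1 and NRF2 at mitochondria (24.7 ± 1.03 and 30.1 ± 0.201 FPKM, SD, n = 3 each; log2 fold change 0.28, limma adjusted p = 0.035). The call of PGAM5 was lost in every fit that left out a library except that without oeSTUB1 replicate 2, with limma adjusted p up to 0.19 (without oeNC replicate 2). SQSTM1, the autophagy receptor that sequesters KEAP1, was 241 ± 16.0 and 234 ± 26.2 FPKM (limma adjusted p = 0.80). NFE2L1, a related transcription factor, differed by -0.02 on the log2 scale (limma adjusted p = 0.91). MAFK, a DNA-binding partner of NRF2, was 44.4 ± 1.86 and 37.6 ± 4.16 FPKM without overlap (log2 fold change -0.24, limma adjusted p = 0.14). NFE2, a related factor of blood cells at 0.192 and 0.324 FPKM, and EP300, a histone acetyltransferase and coactivator, had log2 fold changes of 0.53 and -0.37 and did not pass the test (limma adjusted p = 0.22 and 0.50).

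In a wider list of NRF2 targets, most log2 fold changes were below 0. The list was chosen with earlier results of these data known, so its counts are no independent support. Of 34 further targets, 33 were listed and tested, 7 were called lower (21.2%, against 6.59% of all genes) and 1 higher, their median log2 fold change was -0.19, and 25 of the 33 were below 0. The groups did not overlap in 15 with lower and in 1 with higher oeSTUB1 values, against the background of 17.3% and 21.5% of all genes given above. The largest difference was that of CYP4F11, a fatty acid hydroxylase, at 36.6, 36.5 and 38.4 FPKM in oeNC and 7.75, 5.93 and 9.35 FPKM in oeSTUB1 libraries. It fell by 2.29 on the log2 scale (SE 0.15, 95% interval -2.64 to -1.93, limma adjusted p = 0.00017) and was called with each library left out. NR0B1, an orphan nuclear receptor, likewise fell in each such fit, with 15.2, 14.2 and 14.3 FPKM in oeNC and 6.31, 9.53 and 7.04 FPKM in oeSTUB1 libraries (log2 fold change -0.95, SE 0.15, limma adjusted p = 0.0054).

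Enzymes of the detoxification and NADPH arms were also among the called genes. AKR1B10, an aldo-keto reductase that clears reactive carbonyls, fell from 723 ± 9.17 to 481 ± 52.3 FPKM (SD, n = 3 each; log2 fold change -0.59, limma adjusted p = 0.011). GSR, which reduces oxidized glutathione, fell from 147 ± 1.79 to 111 ± 4.35 FPKM (log2 fold change -0.41, limma adjusted p = 0.0095). OSGIN1, an oxidative stress induced growth inhibitor, fell by 0.66 on the log2 scale (limma adjusted p = 0.011), and ME1, the cytosolic malic enzyme that makes NADPH, by 0.25 (limma adjusted p = 0.049). AKR1B10 and GSR lost their calls without oeNC replicate 1, 2 or 3 (limma adjusted p up to 0.067 and 0.068), OSGIN1 without oeNC replicate 3 (0.051), and ME1 without any library other than oeSTUB1 replicate 2 (up to 0.20). UGT1A6, a glucuronosyltransferase that shares exons with its neighbours and was called lower, was at 0.581 ± 0.0464 and 0.205 ± 0.107 FPKM and GSTM3, a glutathione transferase and the 1 gene called higher, at 0.910 ± 0.117 and 1.62 ± 0.399 FPKM, both low levels, and each lost its call without any 1 of the oeNC libraries (limma adjusted p up to 0.10 and 0.13) or without oeSTUB1 replicate 1 for UGT1A6 (0.063) and 3 for GSTM3 (0.064). The 3 most abundant targets of the list did not pass the test. FTL, the ferritin light chain, was 9282 ± 300.2 and 7722 ± 1158 FPKM, FTH1, the heavy chain, 3097 ± 76.2 and 3729 ± 729 FPKM, and AKR1C2, whose reads can be shared with near-identical AKR1C genes, 961 ± 74.8 and 745 ± 79.3 FPKM (log2 fold change -0.37, limma adjusted p = 0.086).

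**Figure D4:**
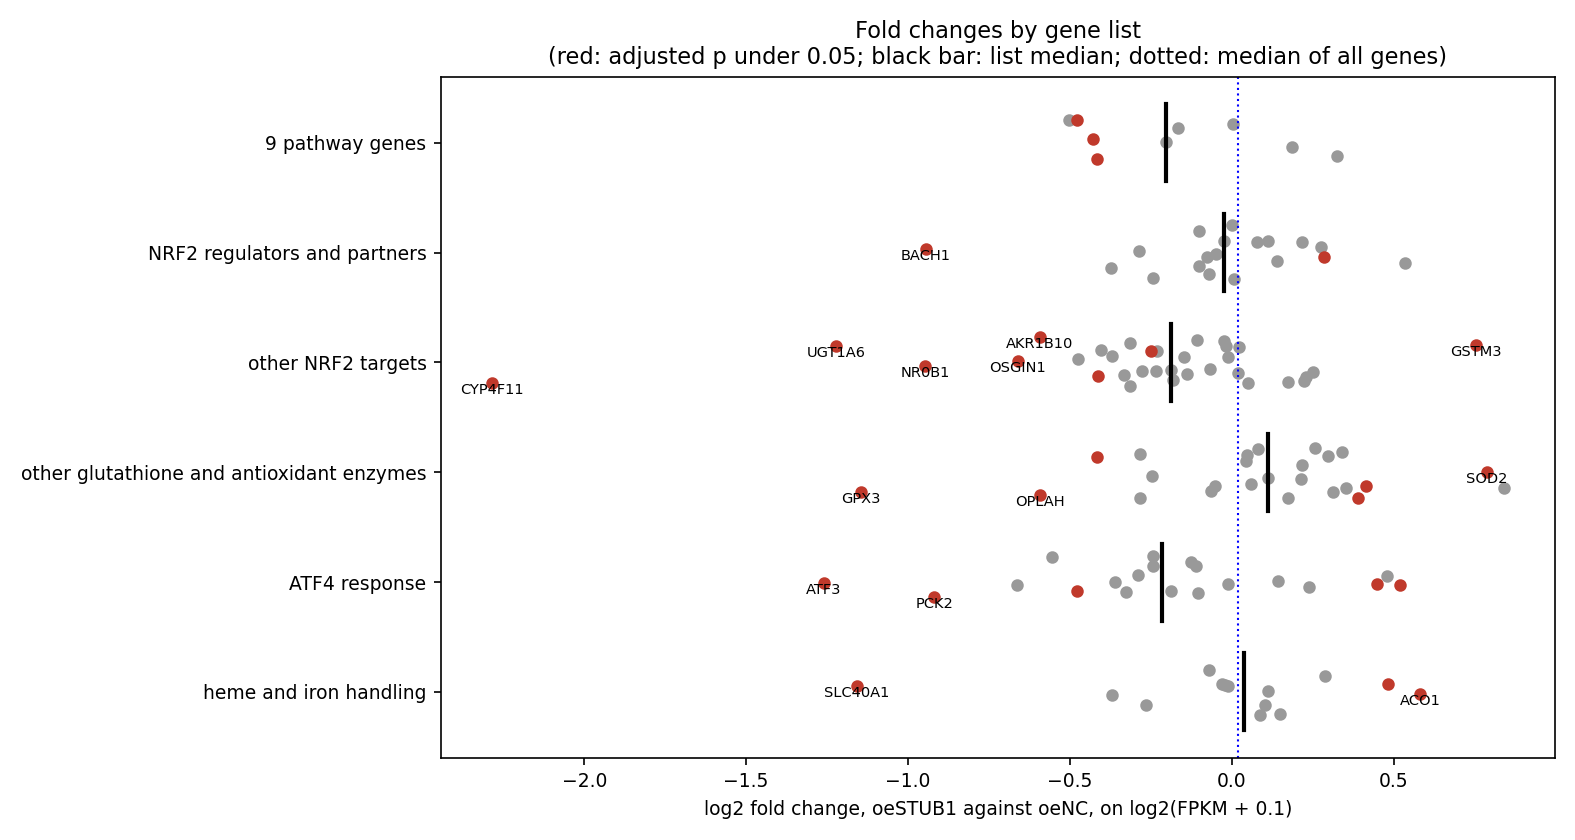
Log2 fold changes of the 9 pathway genes and of the genes of 5 further lists, 1 point per tested gene, red where called, with the list median as a black bar and the median of all genes (0.02) as a dotted line. Medians are -0.20 for the 9 genes, -0.02 for regulators, -0.19 for other NRF2 targets, 0.11 for other antioxidant enzymes, -0.22 for ATF4 response genes and 0.04 for heme and iron genes, and CYP4F11 is the lowest point at -2.29.

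Antioxidant enzymes outside the classical NRF2 targets moved in both directions. Of 25 tested, 3 were called higher and 3 lower (24%, against 13.6% of all genes), with a median log2 fold change of 0.11, which was -0.03 without oeSTUB1 replicate 2. SOD2, the mitochondrial superoxide dismutase, rose from 6.89 ± 0.347 to 12.0 ± 0.887 FPKM (SD, n = 3 each; log2 fold change 0.79, limma adjusted p = 0.0014), while GPX3, a secreted glutathione peroxidase, fell from 12.0 ± 0.601 to 5.47 ± 1.44 FPKM (log2 fold change -1.15, limma adjusted p = 0.0040). Both were called with each library left out. PRDX2, a peroxiredoxin with low values here (0.349 ± 0.369 and 0.498 ± 0.156 FPKM), overlapped between the groups. The most abundant of these enzymes did not pass the test, namely the peroxiredoxins PRDX3 (log2 fold change 0.26, limma adjusted p = 0.15) and PRDX5 (0.08, 0.78) and the cytosolic superoxide dismutase SOD1 (0.04, 0.87). GGCT (0.42) and OPLAH (-0.59), which act in the recycling of glutathione, GPX8 (0.39), a peroxidase of the endoplasmic reticulum, and GLRX (-0.42), glutaredoxin, were the other called genes, with log2 fold changes in parentheses. These 4 lost their calls without oeNC replicate 1, 2 or 3, GGCT also without oeSTUB1 replicate 1 and GLRX without oeSTUB1 replicate 1 or 3, with limma adjusted p up to 0.19, 0.080, 0.072 and 0.11 in the order given.

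SLC7A11 also belongs to the response to ATF4, the transcription factor of amino acid and endoplasmic reticulum stress, so genes of that response were set beside it. Of 20 tested, 2 were called higher and 3 lower (25%, against 13.6% of all genes), with a median log2 fold change of -0.22. PCK2, mitochondrial phosphoenolpyruvate carboxykinase, fell from 27.1 ± 3.2 to 14.3 ± 1.62 FPKM (SD, n = 3 each; log2 fold change -0.92, limma adjusted p = 0.0022). ATF3 fell by 1.26 (limma adjusted p = 0.026) and PHGDH, which opens serine synthesis, by 0.48 on the log2 scale (limma adjusted p = 0.048), while VLDLR rose by 0.52 (limma adjusted p = 0.017) and ATF5 by 0.45 (limma adjusted p = 0.018). Apart from PCK2, these calls were lost in several of the fits that left out a library. Such fits were those without oeNC replicate 2 or 3 or oeSTUB1 replicate 3 for ATF3 (limma adjusted p up to 0.073), without oeNC replicate 2 or 3 or oeSTUB1 replicate 1 for ATF5 (up to 0.087), without any oeNC library or oeSTUB1 replicate 1 for VLDLR (up to 0.085), and without any library but oeSTUB1 replicate 2 for PHGDH (up to 0.16). DDIT3, the stress factor CHOP, was 4.87, 3.87 and 20.9 FPKM in oeNC and 3.99, 6.74 and 3.63 FPKM in oeSTUB1 libraries. Thus oeNC replicate 3, the library with the highest NFE2L2 and SLC7A11, was also high for DDIT3, and the median of the ATF4 list was 0.03 without it. Its part in the NFE2L2 result was not tested beyond the fit without that library, in which NFE2L2 differed by -0.37. SLC7A5, an amino acid transporter, and DDIT4, an inhibitor of mTORC1, were with SLC3A2 the most abundant genes of this list, with log2 fold changes of -0.12 and -0.36 that did not pass the test (limma adjusted p = 0.50 and 0.26).

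Genes of heme and iron handling, beside HMOX1, showed 2 called higher and 1 called lower of 14 tested (21.4%, against 13.6% of all genes), with a median log2 fold change of 0.04. SLC40A1, the iron exporter ferroportin, fell from 5.0 ± 0.116 to 2.26 ± 0.700 FPKM (SD, n = 3 each; log2 fold change -1.16, limma adjusted p = 0.011). ACO1, which also serves as an iron-sensing RNA-binding protein, rose from 9.82 ± 0.309 to 14.8 ± 0.865 FPKM (log2 fold change 0.58, limma adjusted p = 0.0033), and SLC48A1, a heme transporter, rose by 0.48 on the log2 scale (limma adjusted p = 0.0073, and 0.055 without oeNC replicate 2). TFRC, the transferrin receptor, CP, the ferroxidase ceruloplasmin, and NCOA4, the receptor for ferritin autophagy, were the most abundant and did not pass the test (log2 fold changes 0.15, -0.37 and 0.11, limma adjusted p = 0.45, 0.25 and 0.33). Over these 5 lists together, 111 genes were tested, 9 were called higher and 15 lower (21.6% called, against 13.6% of all genes). All 5 lists were chosen with earlier results of these data known, so neither their own shares nor this one are independent support.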

How the data were processed

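RNA-seq libraries of TFK1 cells (3 oeNC, 3 oeSTUB1) were grouped and matched to table columns by label, and 0 value columns were left without a sample. A table of 23569 genes was deposited as FPKM, which the authors had scaled for gene length and library total. The submitters' processing notes list fastp 0.20.1, HISAT2 2.1.0, HTSeq 0.11.2, R 3.2.0, DESeq2 1.22.2 and GRCh38.p13, without roles. From the FPKM steps, whole fragments (within 0.0002 of a whole number, more for large counts) were recovered for 100% of genes, up to a common divisor. Library totals were 34705001, 34663445 and 36744521 (oeNC) and 34457814, 33106564 and 34169331 (oeSTUB1).

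Genes averaging 0.1 FPKM or more were fitted in R 4.3.3 with limma 3.58.1 (lmFit, eBayes with trend, two-sided) on log2(FPKM + 0.1), with Benjamini-Hochberg adjustment over 15353 genes. Fold changes on this scale understate those of low genes. In data simulated for this comparison, 199 of 200 genes changed 4-fold were called with the right sign, with 9 unchanged genes called among 15355. Those changes were larger than any of the 9 pathway genes, and the simulation held no length trend like that of oeSTUB1 replicate 2. It therefore does not tell how often smaller changes are found or how many false calls these data hold. Ratios and single genes were compared by exact permutation. Replicates differed by more than sampling noise (chi-square per degree of freedom 3.48 to 82.6), so none was a copy.

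The 9 genes and all lists were chosen with earlier results of these data known. Named were the 9 genes, STUB1, the called genes of each list, its 3 largest fold changes and 3 highest levels, and the 3 genes most correlated with the member of largest fold change, and other named genes were added after their values were seen. BACH2 fell below the filter, and TRIM16L and SOD3 were not analysed here. Positions are from GENCODE release 29, and chromosome order and promoters from RefSeq (GRCh38.p14). Alternatives were pseudocounts of 1 and 0.01, no filter or one at 1 FPKM, median-ratio scaling, quantile normalization, no trend, a replicate block, limma-voom on recovered fragments, a fold threshold, leaving out each library and, added after seeing the data, a lowess correction for gene length.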

Additional observations from a re-analysis of the deposited data

How the results depend on the processing

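The 3 of 9 pathway genes called lower ranged from 0 (without oeNC replicate 1 or 3) to 5 (without oeSTUB1 replicate 2) with 1 library left out and were 0 with a minimum absolute log2 fold change of 1, while those called higher ranged from 0 to 1 and were 2 with the correction for gene length, namely GCLM and HMOX1. NQO1, with a log2 fold change near 0, turned to -0.049 with the length correction and -0.018 with median-ratio scaling, and ranged from -0.058 to 0.073 with 1 library left out. Over all genes, 1076 higher and 1012 lower calls became 1675 and 1647 with the length correction and 429 and 369 with the fold threshold, and ranged from 477 to 2274 and from 456 to 1838 with 1 library left out, the highest counts being those without oeSTUB1 replicate 2. Of the listed pathway genes, 9 higher and 15 lower calls ranged from 2 to 15 and from 6 to 31 with 1 library left out, lower calls were 28 with the length correction, and the fold threshold kept 0 and 5. With 1 library left out an arm has 2 libraries and fewer degrees of freedom, and other causes were not tested. STUB1 was called in the 16 alternatives other than the fold threshold. Of 24 called list genes, 8 were called in all 16 alternatives other than the fold threshold (BACH1, CYP4F11, NR0B1, GPX3, SOD2, PCK2, SLC40A1 and ACO1), of which CYP4F11, GPX3 and SLC40A1 also passed that threshold, and none of the 24 changed sign in those run. Among those alternatives, the ones that kept all libraries called 16 of the 24 throughout. Calls of PGAM5, ME1, UGT1A6, GSTM3, GGCT, GLRX, PHGDH and ATF3 were lost in some of these, so not only by leaving out a library.

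The replicate numbers are shared between the groups, and the sources do not say whether same-numbered libraries were paired. Correlations of same-numbered deviations were -0.05, -0.05 and 0.06, and not every library correlated best with its own number. Deviations from a mean of 3 libraries depend on each other, so these values cannot settle whether libraries were paired. With a replicate block, 741 genes were called higher and 747 lower, and 2 of the 9 pathway genes were lower, since SRXN1 had an adjusted p of 0.0504 from limma. The 9 genes held at least 1883 fragments in every library, and how far depth, the spread between 3 libraries or the length trend of oeSTUB1 replicate 2 limited precision was not tested.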
